A study of Mus musculus with 4 samples.

Results

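The genes described here serve protein folding in the endoplasmic reticulum (ER), the compartment where collagen and other secreted proteins are made. They were chosen by name as 10 genes of the unfolded protein response and of the secretory chaperones, and all 10 were found among the 16416 genes of the table. RNA was sequenced from mouse cells that had grown out of shoulder joint capsule 1 week after the joint was immobilized, used at passage 2 and named synovial fibroblasts in the labels. There were 4 libraries, 1 per group. The first group was miR-26a -/- cells that received 10 nM of a double-stranded miR-26a mimic for 24 h. The second was miR-26a -/- cells that received 10 nM Silencer Negative Control siRNA for 24 h, and the third was untransfected miR-26a -/- cells. The last group was untransfected wild-type cells of C57BL6/J mice. All 4 cultures share the immobilization and the outgrowth in serum, and the labels do not say how many mice stand behind a culture or in which cells the knockout acts. MiR-26a itself was not measured, so the genotype labels could not be checked on the targeted gene. Because each group is 1 library, differences have no replicate check and p-values were not computed. Ratios are log2 and come with an exact 95% interval in parentheses for counting error alone, so they compare libraries rather than conditions.

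Proteins enter the ER unfolded. Hspa5 (BiP), Hsp90b1 (endoplasmin, also called GRP94) and Calr (calreticulin) are abundant chaperones that hold client proteins in the ER lumen, and Calr binds glycoproteins and calcium. Serpinh1 (Hsp47) is a chaperone specific to collagen that binds the folded triple helix. When unfolded proteins accumulate, membrane sensors start the unfolded protein response. Atf6 and Ern1 raise chaperones and degradation factors, Ern1 by removing a short intron from the mRNA of Xbp1. Eif2ak3 slows translation while favouring translation of Atf4, whose protein induces Ddit3 (CHOP) and Trib3. Herpud1 belongs to the machinery that degrades misfolded ER proteins, and Creb3l1 (OASIS) is a membrane-bound transcription factor released by cleavage that acts on collagen genes in bone. Gene counts hold neither the splicing of Xbp1, nor the translation of Atf4, nor the cleavage of Atf6 or Creb3l1, so these data bear on transcript levels alone.

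The 3 luminal chaperones and Herpud1 hold a form of 1 promoter motif that was not found letter for letter in the other 5 members with a promoter entry. Promoters, from 250 bases before to 50 bases after the gene start, were taken from RefSeq (GRCm38.p6) and matched 9 of the 10 members, Creb3l1 being the one without an entry. The ER stress element, CCAAT and CCACG with 9 bases between them on either strand, stood in the promoters of Hspa5, Calr and Hsp90b1, with 2 copies in Hsp90b1, and in 0.119% of all 32851 promoters. A second form, ATTGG and CCACG with 1 base between them, stood in that of Herpud1 and in 0.0365% of all promoters. These windows show where the letters stood in these 4 members. Both forms were chosen as known elements of ER stress genes, so finding them here was no test of these members. The second form was added to the motifs first planned. Each window reads 5′ to 3′ on the gene's strand, and the capitals mark the fixed letters of the element. The element appears as its reverse complement in Calr and in the second copy of Hsp90b1.
Hspa5, chr2:34772005-34772063, plus strand: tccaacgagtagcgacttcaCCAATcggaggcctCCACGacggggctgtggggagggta
Hsp90b1, chr10:86705513-86705676, minus strand: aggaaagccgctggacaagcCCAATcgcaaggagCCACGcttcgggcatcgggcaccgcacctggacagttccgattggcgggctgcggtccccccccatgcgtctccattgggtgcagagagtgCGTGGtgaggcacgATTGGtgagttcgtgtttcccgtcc
Calr, chr8:84847055-84847113, minus strand: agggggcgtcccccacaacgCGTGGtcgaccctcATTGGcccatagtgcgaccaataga
Herpud1, chr8:94386357-94386407, plus strand: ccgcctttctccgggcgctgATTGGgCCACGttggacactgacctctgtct

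The element of Hspa5 lay 65 to 47 bases before the gene start, that of Calr 162 to 144 bases before it, and those of Hsp90b1 212 to 194 and 107 to 89 bases before it. The core CCACG, which lies inside both forms, was present in 6 of the 9 member promoters and in 32.8% of all promoters. Serpinh1 and Atf4 held this core with neither full form. The unfolded protein response element TGACGTGG (0.676% of all promoters) and TGATGAAA, a variant of the element bound by Atf4 (1.02%), were in none of the 9, and the Atf4 element TGATGCAA itself (0.895%) was in Herpud1. A match is a run of letters and not a measured binding site. Only exact letters within these promoters were sought, so an element with a changed letter or farther from the gene start would be missed.

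**Figure D1:**
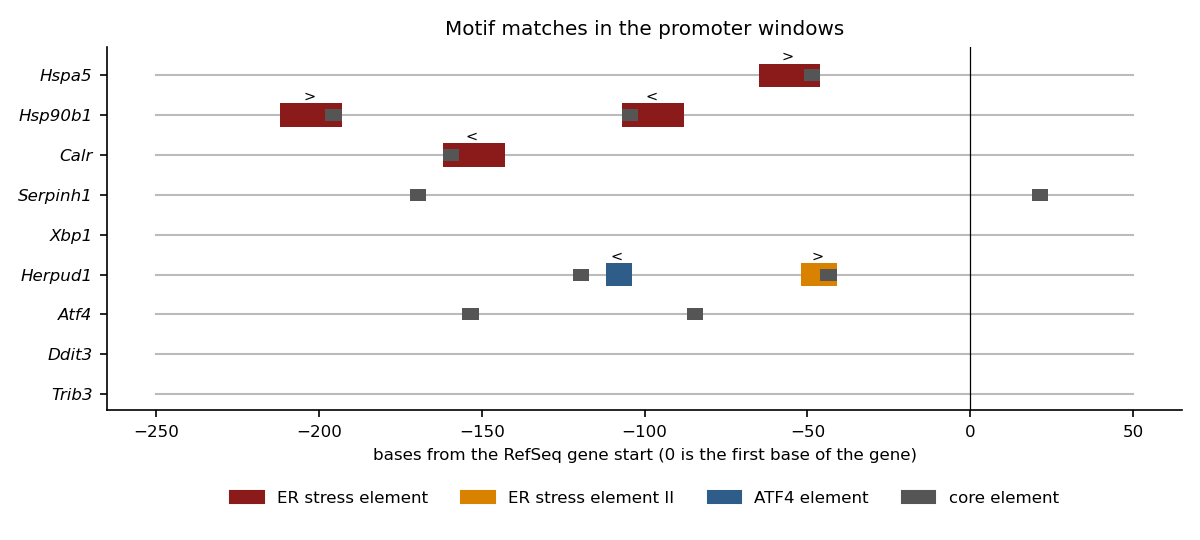
Motif matches in the RefSeq promoter windows of 9 genes; the x axis is distance from the gene start in bases, and > and < give the strand of each match, with the core CCACG in grey. The ER stress element is seen in Hspa5, Hsp90b1 (2 copies) and Calr, and its second form in Herpud1.

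MiR-26a pairs with transcripts through bases 2 to 8, its seed, in capitals in the mature sequence, which RefSeq places at chr9:119031811-119031832 and chr10:126995543-126995564 on the plus strand and which is also the sense strand of the mimic.
miR-26a-5p: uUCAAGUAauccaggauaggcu

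The matching site TACTTGA was absent from the GENCODE M21 3' untranslated regions of all 10 members, whereas 12.2% of the 12597 measured genes with such a region held it. The regions of most members were short, from 81 bases in Atf4 to 1434 bases in Hspa5, beside a median of 1221 bases for measured genes.

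Estimated counts summed to 18584404 in the mimic, 19392655 in the negative-control, 17598763 in the knockout and 18198033 in the wild-type library. Markers of 2 cell types were abundant in every library. The 19 macrophage markers, none at 0, summed to 34294, 34324 and 35505 TPM in the mimic, negative-control and knockout libraries, against 24005 TPM in the wild-type library. The 18 fibroblast markers, also none at 0, summed to 18833, 16467 and 18589.5 TPM in the mimic, negative-control and knockout libraries. Their sum was 28196 TPM in the wild-type library. Col1a1, Col1a2 and Col3a1 are among them and also in the list of fibrillar collagens below. They had 2780, 2403 and 1265 TPM in the knockout against 5821, 5431 and 4128 TPM in the wild type. Of the 17 measured markers 15 lay below 0 between knockout and wild type and 2 above. S100a4 was higher, with 5680 TPM in the knockout against 3398 TPM in the wild type. Between knockout and wild type the median log2 ratio was 1.10 for macrophage and -0.94 for fibroblast markers, and 0.01 for all measured genes. TPM is a level per transcript length scaled to a fixed sum, and it was used for levels. Ratios were taken from counts scaled by TMM, which balances libraries on their common genes. On the deposited TPM the median of all measured genes moved by -0.12 on the log2 scale between knockout and wild type. TPM pairs of these libraries thus tend to sit lower than the ratios given, by an amount that differs between genes.

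Together the 10 genes made up 0.509% of TPM in the mimic, 0.529% in the negative-control, 0.507% in the knockout and 0.575% in the wild-type library. Calr was the highest of them, at rank 82 of the table by mean TPM, followed by Serpinh1 at rank 130, Hspa5 at 150 and Hsp90b1 at 200. Trib3 was the lowest, at rank 3293. No member reached a 2-fold difference in the knockout to wild-type comparison, where 12.9% of 12805 measured genes did. At 1.5-fold 2 of 10 members differed, Serpinh1 and Creb3l1, both lower in the knockout, beside 24.5% of measured genes in either direction and 13.2% in the lower direction. That share is near the background and is no result about the members as a group. Their median log2 ratio was -0.16, with 3 above and 7 below 0.

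**Figure D2:**
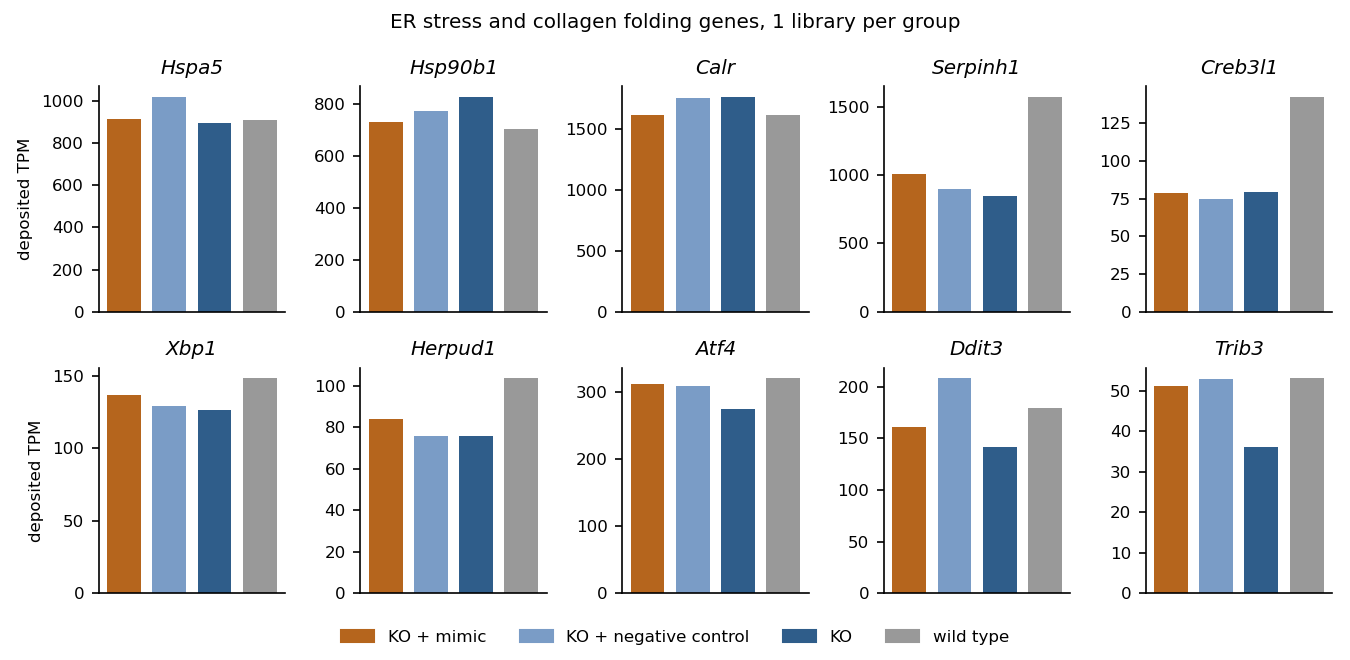
Deposited TPM of the 10 genes, 1 bar per library, each panel with its own axis from 0. The wild-type bar stands above the others for Serpinh1 (1574 TPM) and Creb3l1 (143 TPM), while Hspa5, Hsp90b1 and Calr are nearly level and the knockout bar is the lowest for Atf4, Ddit3 and Trib3.

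None of the 3 luminal chaperones reached 1.5-fold between knockout and wild type. Hspa5 (Entrez 14828; chr2:34772090-34776529 in GRCm38.p6) had 913 TPM in the mimic, 1019.6 TPM in the negative-control and 897 TPM in the knockout library, against 911 TPM in the wild type. Its log2 ratio between knockout and wild type was 0.11 (0.08 to 0.14), which turned to -0.02 on deposited TPM, so that no direction can be given. The negative-control library was the high one for Hspa5, at 0.15 (0.12 to 0.17) above the knockout.

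Hsp90b1 (Entrez 22027; chr10:86690841-86705444) had 728 TPM in the mimic, 774 TPM in the negative-control and 827 TPM in the knockout library, against 702 TPM in the wild type. Its ratio between knockout and wild type, 0.37 (0.34 to 0.40), was the highest of the 10 members in that comparison and remained under 1.5-fold. Calr (Entrez 12317; chr8:84842088-84846931) had 1621 TPM in the mimic, 1757 TPM in the negative-control and 1767 TPM in the knockout library, against 1618 TPM in the wild type. Knockout over wild type was 0.26 (0.24 to 0.29) for Calr. The knockout library was the highest and the wild-type library the lowest for both genes. Hsp90b1 overlaps 4598 bases of a pseudogene on the opposite strand, and whether counting used strand is not given in the sources used here. On its own strand it overlaps 977 bases of Gm15344 and 133 bases of the miRNA gene Gm25745. Its counts could hold reads of these genes.

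The summed level of these 3 chaperones was 3261 TPM in the mimic, 3550 TPM in the negative-control and 3490 TPM in the knockout library, against 3231 TPM in the wild type. The wider list of ER chaperones and co-chaperones has these 3 among its genes. Of its 17 measured genes 13 lay above 0 between knockout and wild type. The median was 0.13, beside 0.01 for all measured genes. One of the 17, Sdf2l1, a partner of BiP co-chaperones, passed 2-fold, with 122 TPM in the knockout against 65.7 TPM in the wild type and a log2 ratio of 1.04 (0.88 to 1.20). Among all measured genes 5.9% were at least 2-fold higher. On deposited TPM the list's median turned to -0.0034, where the median of all genes was -0.11. The genes of the table that carry the ER stress element in their promoter, 18 of them measured, had a median ratio of -0.05 in this comparison. Of these 18, with Hspa5, Hsp90b1 and Calr among them, 9 lay above 0. At 2-fold 4 were lower and 1 was higher, beside 7.01% and 5.9% of all measured genes.

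Serpinh1 parted from the other chaperones. It (Entrez 12406; chr7:99345375-99353239) had 1005 TPM in the mimic, 896 TPM in the negative-control and 849 TPM in the knockout library, against 1574 TPM in the wild-type library. The libraries of knockout cells lay close to each other and all below the wild type. The log2 ratio between knockout and wild type was -0.76 (-0.79 to -0.73), or 1.69-fold lower on 16211 against 27622 counts, and 80.9% of measured genes had a ratio of smaller size. In TPM, Serpinh1 stood at 1.10 times Hspa5 in the mimic, 0.879 times in the negative-control and 0.946 times in the knockout library, against 1.73 times in the wild type.

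Fibrillar collagens, its clients, had a median ratio of larger size than the chaperone's, though not every collagen did, with Col5a2 at -0.75 and Col11a2 at -0.02. Of the 11 genes 6 were at least 2-fold lower in the knockout, beside 7.01% of all measured genes, and the median was -1.05. The 1 that was at least 2-fold higher was Col2a1 of cartilage, beside 5.9% of all measured genes. Col1a1, the main chain of type I collagen, had 2780 TPM in the knockout against 5821 TPM in the wild type and a log2 ratio of -0.94 (-0.95 to -0.93), and Col3a1 stood at -1.58 (-1.59 to -1.57). Summed, the 11 genes had 8326 TPM in the mimic, 7642 TPM in the negative-control and 7513 TPM in the knockout library, against 17586 TPM in the wild type. For every 100 TPM of fibrillar collagen there were 12.1 TPM of Serpinh1 in the mimic, 11.7 TPM in the negative-control and 11.3 TPM in the knockout library, against 8.95 TPM in the wild type. Serpinh1 was therefore lower in total and higher per TPM of the summed collagens in the libraries of knockout cells. The largest terms of that sum were Col1a1, Col1a2 and Col3a1. This does not hold for each collagen, since Col5a2 had nearly the same ratio between knockout and wild type as Serpinh1.

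In the list of collagen folding and export, of 25 measured genes with Serpinh1 among them 22 lay below 0 between knockout and wild type, and the median was -0.32. None passed 2-fold, beside 12.9% of all measured genes. At 1.5-fold 3 were lower, Serpinh1, the ER prolyl isomerase Fkbp9 at -0.85 (-0.89 to -0.81) and P3h3, a member of the prolyl 3-hydroxylase family, at -0.64 (-0.73 to -0.56), which is no larger a share than the 13.2% of all measured genes. Crtap, a partner of prolyl 3-hydroxylation, had 198 TPM in the knockout against 309 TPM in the wild type, at -0.51 (-0.58 to -0.44). P4hb, which doubles as a disulfide isomerase and a subunit of prolyl 4-hydroxylase, was at -0.12 (-0.15 to -0.09). Plod2, a collagen lysyl hydroxylase, lay on the other side at 0.24 (0.18 to 0.31). In bulk RNA fewer fibroblasts and less of these transcripts per fibroblast cannot be told apart, and the part of the higher macrophage and lower fibroblast markers in these ratios was not tested.

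**Figure D3:**
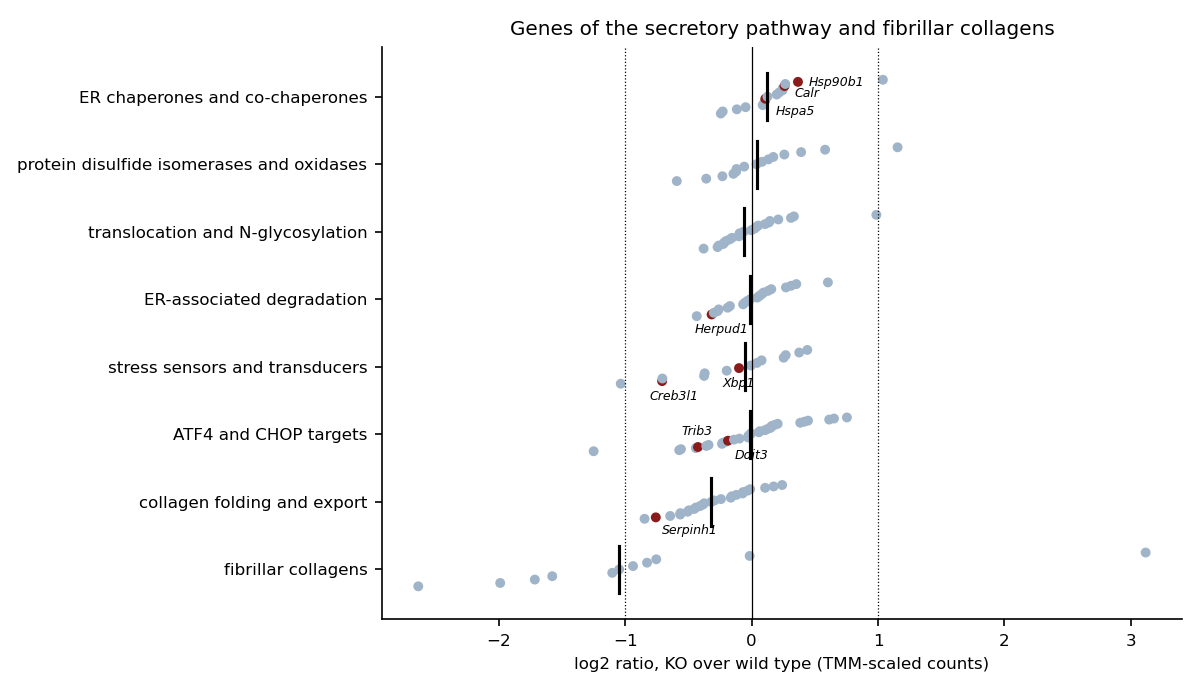
Log2 ratios between knockout and wild type (x axis, TMM-scaled counts) of each measured gene, in rows by gene list; red points are members, black ticks are list medians and dotted lines mark 2-fold. The luminal chaperones sit right of 0, Serpinh1 sits left of its list's median of -0.32, and the fibrillar collagens are centred on -1.05.

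Among the transcription factors, Creb3l1 followed Serpinh1 whereas Xbp1 was nearly level. Creb3l1 (Entrez 26427; chr2:91982328-92024170) had 78.6 TPM in the mimic, 74.8 TPM in the negative-control and 79.7 TPM in the knockout library, against 143 TPM in the wild type. Its ratio between knockout and wild type was -0.71 (-0.80 to -0.62), on 1546 against 2545 counts, and the libraries of knockout cells lay close together, all below the wild type. Its paralog Creb3l2, which controls secretory capacity in cartilage, was at least 2-fold lower, at 32.4 TPM in the knockout against 71.6 TPM in the wild type, or -1.04 (-1.12 to -0.95), and Creb3, the founding member of the family, stood at 0.08 (-0.03 to 0.18).

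Creb3l1 is known from osteoblasts, and 6 of 9 osteoblast markers were measured in the knockout to wild-type comparison, with a median of -0.01. At 2-fold 2 of them were higher and 2 lower, beside 5.9% and 7.01% of all measured genes. Of the 9 markers 3 were at 0 counts in the mimic, 2 in the negative-control and 3 in the knockout library, against none in the wild type. Ibsp (bone sialoprotein) was at 0 in every library of knockout cells and at 6.38 TPM in the wild type, and Bglap2 (an osteocalcin gene) was also lower. Sp7, a transcription factor of osteoblasts, and Alpl, alkaline phosphatase, were higher at low levels, with 0.70 and 3.35 TPM in the knockout against 0.17 and 1.49 TPM in the wild type. The summed level of the list, 9734, 8481 and 9194 TPM in the mimic, negative-control and knockout libraries and 7470 TPM in the wild type, was almost all Spp1 (osteopontin), which macrophages also express. Runx2, another of the markers, had 8.93 TPM in the knockout against 13.9 TPM in the wild type, at -0.47 (-0.64 to -0.30). The part of these markers in the ratio of Creb3l1 was not tested, nor was that of the lower fibroblast and higher macrophage markers.

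Xbp1 (Entrez 22433; chr11:5520641-5525993) had 137 TPM in the mimic, 129 TPM in the negative-control and 126 TPM in the knockout library, against 148 TPM in the wild type. Between its highest and lowest library counts differed 1.08-fold after scaling, the narrowest span of the 10 members. The knockout to wild-type ratio of -0.10 (-0.18 to -0.02) was small, since 19.9% of measured genes had a ratio of smaller size. Xbp1 is also high in plasma cells. From a list of B cell and plasma cell markers, Jchain, Mzb1, Cd79a, Ms4a1 and Pou2af1 were each at or below 0.16 TPM in every library. Sdc1 and Prdm1, which plasma cells share with other cell types, were present in every library, Sdc1 at 165, 154 and 173 TPM in the mimic, negative-control and knockout libraries against 155 TPM in the wild type, and Prdm1 at 2.45, 2.71 and 2.78 TPM against 2.09 TPM.

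Herpud1 (Entrez 64209; chr8:94386429-94395371) had 83.9 TPM in the mimic, 75.6 TPM in the negative-control and 75.7 TPM in the knockout library, against 103 TPM in the wild type. The wild-type library was again the high one, and knockout over wild type was -0.32 (-0.43 to -0.21). Herpud1 overlaps an antisense gene by 535 bases, and reads of that stretch cannot be assigned without strand. The list of ER-associated degradation, with Herpud1 among its genes, had a median of -0.01 in this comparison. Of 21 measured genes 10 lay above 0 and none reached 2-fold, beside 12.9% of all measured genes. Of these, 1 passed 1.5-fold, Edem1, a lectin that sends misfolded glycoproteins to degradation, at 0.60 (0.54 to 0.66). Among all measured genes 11.3% were higher at that limit.

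None of the 3 membrane sensors reached 1.5-fold between knockout and wild type. Atf6 had 32.1 TPM in the knockout against 25.9 TPM in the wild type, or 0.44 (0.35 to 0.53) as a log2 ratio. Ern1 stood at 0.27 (0.08 to 0.46) and Eif2ak3 at -0.37 (-0.50 to -0.25). In all, 8 of 14 measured sensors and transducers lay below 0, with a median of -0.05.

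Atf4, Ddit3 and Trib3 had their lowest level in the untransfected knockout library. The list of Atf4 and CHOP targets did not share this between knockout and wild type, where 15 of 33 measured genes lay above 0 and the median was -0.01. Of these, 3 were higher at 1.5-fold, Slc7a11 at 0.75, Gdf15 at 0.65 and Psph at 0.61, and Stc2 was lower, at -1.25. Among all measured genes 11.3% were higher and 13.2% lower at that limit. Trib3, a pseudokinase that restrains Akt signalling and Atf4 itself (Entrez 228775; chr2:152337425-152344060), had 51.3 TPM in the mimic, 52.9 TPM in the negative-control and 36.1 TPM in the knockout library, against 53.1 TPM in the wild type. The knockout library stood apart and the other 3 were level. Its ratio was -0.42 (-0.58 to -0.27) between knockout and wild type and 0.51 (0.37 to 0.66) between negative control and knockout.

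Ddit3, a transcription factor tied to cell death in lasting ER stress (Entrez 13198; chr10:127290793-127296291), had 161 TPM in the mimic, 208 TPM in the negative-control and 142 TPM in the knockout library, against 179 TPM in the wild type. The negative-control library was the highest and the knockout the lowest. The ratio between negative control and knockout was 0.49 (0.37 to 0.61) on 1425 against 907 counts, and that between knockout and wild type was -0.19 (-0.32 to -0.06). Ddit3 overlaps Mars, on the opposite strand, by 68 bases, and reads of that stretch cannot be assigned without strand.

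Atf4 (Entrez 11911; chr15:80255184-80257545) varied less than its targets, at 312 TPM in the mimic, 309 TPM in the negative-control and 275 TPM in the knockout library, against 320 TPM in the wild type. The knockout library was again the lowest, with a ratio of -0.14 (-0.20 to -0.07) to the wild type. Per unit of Atf4 TPM there was 0.164 of Trib3 in the mimic, 0.171 in the negative-control and 0.131 in the knockout library, against 0.166 in the wild type.

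After transfection with the negative control no member reached 1.5-fold relative to untransfected knockout cells, while 3.69% of 12535 measured genes did and 1.04% reached 2-fold. Trib3 and Ddit3 came nearest, and 93.8% and 92.9% of measured genes had ratios of smaller size. The remaining 8 members lay between -0.13 and 0.15. The list of Atf4 and CHOP targets had a median of 0.16, with 29 of 33 measured genes above 0, beside a median of 0.00 and 6344 of 12535 above 0 among all measured genes. In the same comparison all 17 measured fibroblast markers lay below 0, with a median of -0.23, and their part in the list's ratios was not tested. None of the 33, which include Trib3 and Ddit3, passed 2-fold, and at 1.5-fold 1 was higher and 2 were lower. Examples were Psat1, an enzyme of serine synthesis, at 0.54 with 149.6 TPM after the negative control against 100.5 TPM without it, and Sesn2, a stress-induced inhibitor of mTORC1, at 0.43. Slc7a11, which imports cystine, had the highest ratio of the list, 0.72 (0.53 to 0.91), and Stc2, a secreted glycoprotein, the lowest, -0.70 (-1.16 to -0.26). Chac1, an enzyme that breaks down glutathione, was also lower, at -0.67 (-0.88 to -0.46). It had 22.9 TPM after the negative control against 35.3 TPM without it. The list's ratios were not particular to the negative control. With the mimic over the same knockout library the list's median was 0.15, with 24 of 33 genes above 0. Between mimic and negative control it was -0.02, with 16 of 33 above 0.

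**Figure D4:**
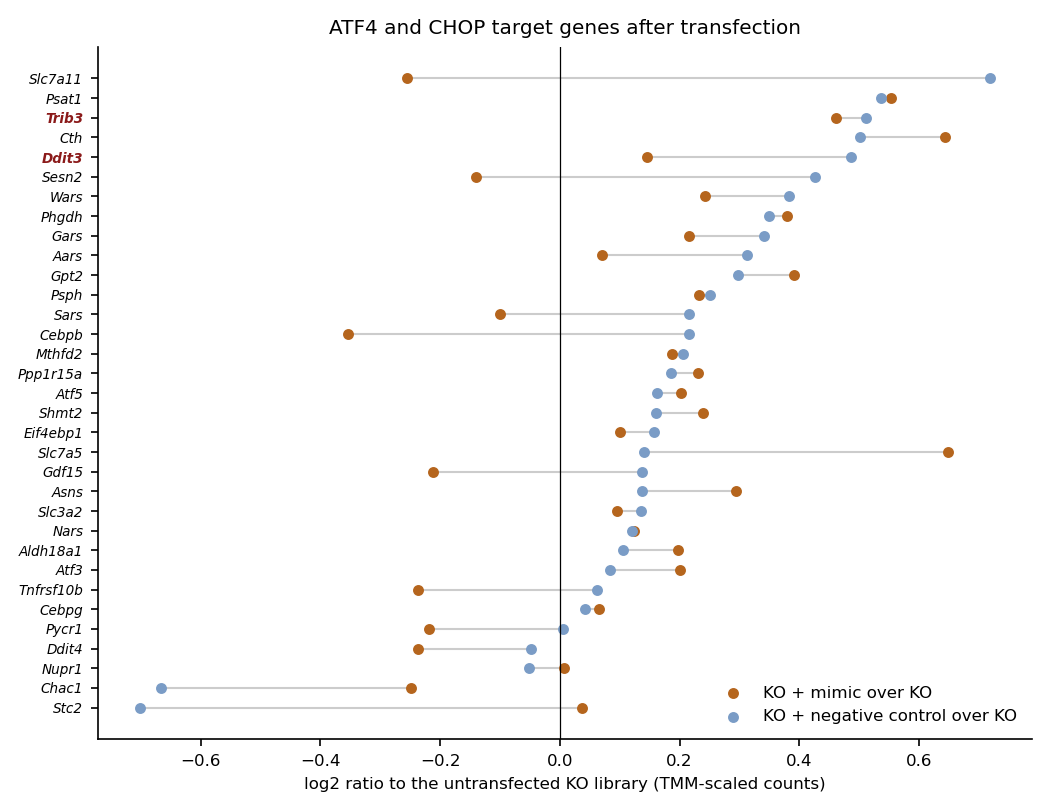
Log2 ratios (x axis, TMM-scaled counts) to the untransfected knockout library of 33 Atf4 and CHOP target genes in the mimic and the negative-control library; both ratios share the knockout library. Trib3 lies right of 0 in both, at 0.46 and 0.51, whereas Ddit3 is at 0.15 with the mimic and 0.49 with the negative control.

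With the mimic no member reached 1.5-fold with either library as the basis. Relative to the negative control 4.55% of 12512 measured genes reached 1.5-fold and 1.21% reached 2-fold, and relative to the untransfected knockout the shares of 12538 genes were 2.94% and 0.742%. These comparisons share the mimic library, and that of negative control over knockout shares a library with each, so the members' ratios are only set side by side. Serpinh1 was above 0 with both, at 0.16 (0.13 to 0.19) relative to the negative control and 0.20 (0.17 to 0.23) relative to the untransfected knockout. Its level was 1005 TPM in the mimic library, against 1574 TPM in the wild type. Fibrillar collagens had a median of 0.18 in each of these comparisons, with 8 of 11 above 0 in each. Fibroblast markers had a median of 0.23 relative to the negative control, with 14 of 17 above 0. Relative to the untransfected knockout their median was -0.045, and 7 of 17 lay above 0. The lists share Col1a1, Col1a2 and Col3a1, and the part of either list in the ratios of Serpinh1 was not tested.

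Of the luminal chaperones, Calr and Hsp90b1 lay on the other side of 0 in both comparisons. Calr stood at -0.12 (-0.15 to -0.10) and -0.17 (-0.20 to -0.15), in that order, and Hsp90b1 at -0.10 (-0.13 to -0.07) and -0.23 (-0.26 to -0.20). Hspa5 was at -0.17 (-0.19 to -0.14) relative to the negative control and -0.02 (-0.05 to 0.01) relative to the untransfected knockout. The latter turned to 0.03 on deposited TPM. The wider list of ER chaperones, which includes these genes, had a median of 0.00 relative to the negative control, with 9 of 17 above 0. Relative to the untransfected knockout its median was -0.07, with 5 of 17 above 0. Creb3l1 had intervals that included 0 with both, from -0.04 to 0.17 and from -0.17 to 0.04.

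Ddit3 and Trib3 differed in what the mimic library showed. Ddit3 was at -0.34 (-0.46 to -0.23) relative to the negative control, where 83.4% of measured genes had a ratio of smaller size, and at 0.15 (0.02 to 0.28) relative to the untransfected knockout. Trib3 was at -0.05 (-0.18 to 0.08) and 0.46 (0.31 to 0.61), in the same order. Herpud1, Xbp1 and Atf4 lay between 0.02 and 0.17 with both. Of the sensors, Ern1 passed 1.5-fold relative to the negative control, at 0.61 (0.43 to 0.78), with 17.8 TPM in the mimic against 11.6 TPM in the negative-control library, and stood at 0.34 (0.17 to 0.52) relative to the untransfected knockout. Collagen folding genes as a list had medians of 0.06 and -0.01, with 1 of 25 past 1.5-fold in each, Plod2 at -0.84 (-0.91 to -0.77) and -0.83 (-0.90 to -0.76).

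**Figure D5:**
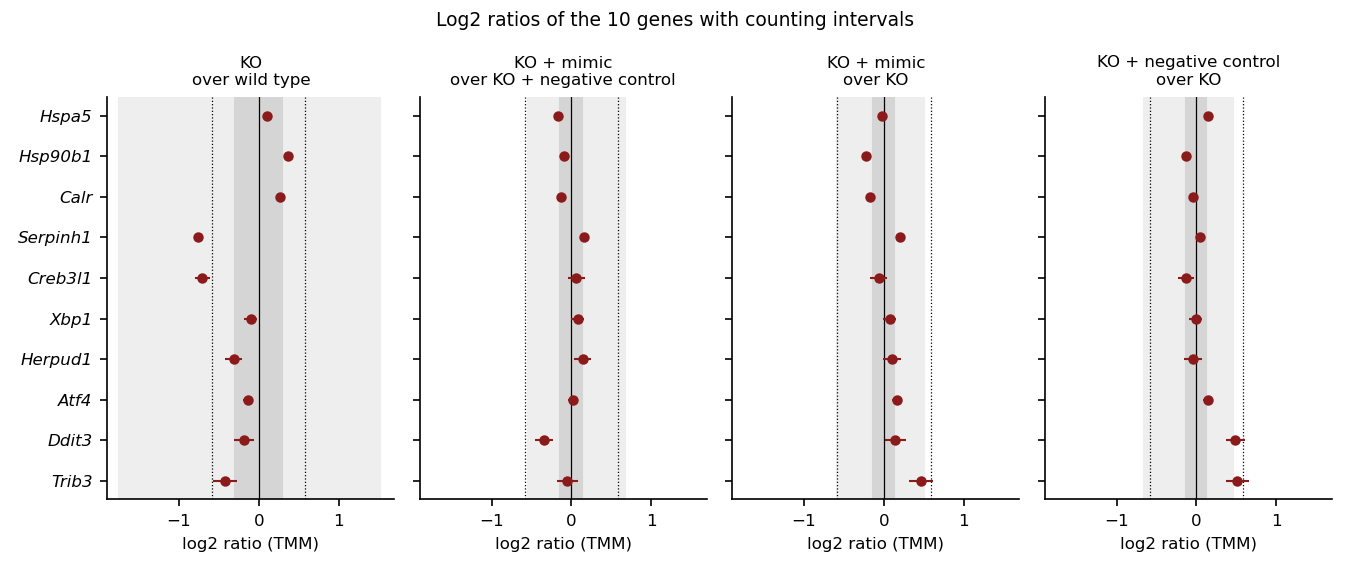
Log2 ratios (points) with exact 95% counting intervals (bars) of the 10 genes in 4 comparisons of single libraries. Dark and light grey bands hold the middle 50% and 95% of measured genes and dotted lines mark 1.5-fold; Serpinh1 and Creb3l1 lie beyond it in the knockout to wild-type panel, and Ddit3 and Trib3 lie near it in the panel of negative control over knockout.

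Across the 4 libraries the spread was widest for Creb3l1, whose highest scaled count was 1.79 times its lowest, then for Serpinh1 at 1.69 and Trib3 at 1.43. Likeness to these 3 was measured as the root mean square difference of centred log2 CPM over the 4 libraries among 6430 genes with a mean of at least 20 TPM. The genes nearest to Creb3l1 were Gpc1 (0.0099), Chsy1 (0.025), Rnd3 (0.027), Lsp1 (0.035) and Serpinf1 (0.035). Gpc1, a cell-surface proteoglycan, had 66.1 TPM in the mimic, 61.0 TPM in the negative-control and 66.1 TPM in the knockout library, against 118 TPM in the wild type. Nearest to Serpinh1 were Nes (0.018), Nr1d1 (0.024), Smad5 (0.030), Marveld1 (0.031) and Neo1 (0.038), and nearest to Trib3 were Rgs16 (0.047), Pvr (0.055), Pparg (0.057), Eif4ebp2 (0.060) and Mex3c (0.061). With 4 libraries a near pattern says only that these genes had similar relative levels.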

How the data were processed

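The authors deposited a gene table with estimated counts, which were not scaled by library size, together with TPM, FPKM and a size-factor-normalized count signal. The signal and FPKM were not used. Per the submitters' processing notes the tools include FastQC, HISAT and Bowtie2 and the builds GRCm38.p6 and mm10; the sources used here give neither the quantification tool nor the annotation. The authors also deposited PoissonDis comparisons of library pairs with a p-value, a false discovery rate and a log2 ratio per gene; those ratios equalled the ratio of unscaled counts within 0.001 for 100% of genes counted in both libraries, and that table was not used for results.

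Estimated counts were rounded, scaled with TMM (edgeR 4.0.16, R 4.3.3), and log2 ratios computed with a prior of 1 count. Intervals are exact conditional binomial (Clopper-Pearson) at 95% and cover counting error only. A gene was measured at 1 CPM or more in either library, and it differed at 2-fold or more with an interval excluding 0; 1.5-fold is an alternative limit. Across all genes this rule gave the background shares. Of 26 symbols turned into dates, each was restored through its Entrez identifier. Members and lists were chosen with earlier results of these data known. Besides the members, genes of a list were named when past 2-fold or among the 4 with the largest ratios of a comparison at 5 TPM or more, or as collagen and chaperone levels beside a member; marker genes named at or near 0 were chosen after their values were seen. Ero1a and Ero1b stand in the table under older symbols. Where nothing says that cultures came from separate animals, libraries stand for cultures. Promoters and miRNA sequences are from RefSeq (GRCm38.p6). Alternatives were DESeq2 1.42.0 size factors, total counts, deposited TPM with a pseudocount of 1, filters of 5 CPM or none, and a prior of 5 counts. The procedure was tested on simulated counts. Python 3.11.15 with scipy 1.17.1 was used.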

Additional observations from a re-analysis of the deposited data

How the results depend on the processing

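The count of members past 2-fold was 0 in each of the 4 comparisons with DESeq2 size factors, total counts, deposited TPM, a prior of 5 counts and either filter, and at 1.5-fold it was 2 between knockout and wild type and 0 elsewhere. Of 40 member ratios, DESeq2 size factors and the larger prior left all within their counting intervals; total counts moved 9 and deposited TPM moved 16 beyond them, besides 1 that also changed sign. That one, the only change of sign among ratios whose interval excluded 0, was Hspa5 between knockout and wild type, at -0.0226 on deposited TPM, and in that comparison the medians of the chaperone and disulfide isomerase lists turned to -0.0034 and -0.0915. Other list medians that crossed 0 under an alternative then lay between -0.0326 and 0.0289. Ratios whose interval included 0 also crossed 0 on deposited TPM for Hspa5 in mimic over knockout (0.0254) and Xbp1 in negative control over knockout (0.0311), and with total counts for that Xbp1 ratio (0.0180) and for Atf4 in mimic over negative control (-0.0150). Between knockout and wild type 1653 genes passed 2-fold and 3134 passed 1.5-fold. For mimic over negative control the count was 152, with 62 on deposited TPM, 53 at 5 CPM and 569 at 1.5-fold. For mimic over knockout it was 93, with 39, 12 and 368 in the same order, 159 with no filter and 56 with the larger prior. For negative control over knockout it was 130, with 52, 38, 463, 212 and 86 in that order. No paired analysis was possible because each group has 1 library. Leaving out a library was not possible for the same reason.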

Other observations

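Among genes of the secretory pathway outside the 10, several had larger ratios between knockout and wild type than any of the 10, and Ero1b and Sec11c were among them. Ero1b, an oxidase that renews disulfide isomerases, had 16.96 TPM in the knockout against 8.34 TPM in the wild type, a log2 ratio of 1.16 (0.94 to 1.38). Sec11c, a subunit of the signal peptidase, had 172 TPM in the knockout against 96.2 TPM in the wild type, at 0.99 (0.82 to 1.16), while its paralog Sec11a stood at -0.16 (-0.27 to -0.04). Erp29, a disulfide isomerase relative, had 328 TPM in the knockout against 241 TPM in the wild type, at 0.58 (0.50 to 0.66). Qsox1, a secreted oxidase of disulfide bonds, was on the other side, at -0.59 (-0.65 to -0.53). The disulfide isomerase list had a median of 0.04, which turned to -0.0915 on deposited TPM, and the translocation list one of -0.06.

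Fam8a1, a cofactor of the Syvn1 ubiquitin ligase, had 47.9 TPM in the mimic, 21.3 TPM in the negative-control and 43.9 TPM in the knockout library, against 59.4 TPM in the wild type. It was the only 1 of 21 measured genes of the degradation list past 2-fold in the comparison of mimic and negative control, at 1.09. Among all 12512 measured genes 0.855% were at least 2-fold higher. The negative-control library was the low one for Fam8a1. Ero1a, the widespread paralog of Ero1b, had 74.6 TPM in the mimic, 58.6 TPM in the negative-control and 44.9 TPM in the knockout library, against 63.0 TPM in the wild type, with a ratio of 0.69 between mimic and untransfected knockout.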
